A study of Homo sapiens with 4 samples.

Results

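The actin and actomyosin cytoskeleton is described here by 41 genes, each taken as the row of the expression table with its symbol: the actins, the chains of non-muscle myosin II, the tropomyosins and other filament-binding proteins, the proteins of filament turnover, the adhesion proteins, the small GTPases RHOA, RHOB and RHOC with the ROCK kinases, and the linkers to the membrane. All 41 symbols had 1 row among the 26603 genes of the table. Messenger RNA was sequenced from PLC8024, an established human liver cancer line, as 2 control libraries (treatment given as control) and 2 drug libraries (treatment given as drug). Which drug was used, at what dose and for how long is not stated in the labels. Nor do they say that the 2 libraries of a group are separate cultures, so every p-value reflects no more than the spread among these libraries, which may be technical. Levels are given as FPKM, fragments scaled to gene length and sequencing depth, although the header of the values names no unit. The gene lengths used are not given, and comparisons of levels between genes depend on them. The value of each library is given, 2 per group.

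Actin filaments grow from profilin-bound monomers, are branched by the Arp2/3 complex and are cut by cofilin. Tropomyosin and calponin family proteins coat them, alpha-actinin and filamin crosslink them, and bipolar filaments of non-muscle myosin II pull on them after the kinase ROCK, acting downstream of RhoA, has raised the phosphorylation of the regulatory light chains. Contractile bundles end at focal adhesions, where talin and vinculin join them to integrins, and ezrin, radixin and moesin tie the cortical filaments to the membrane. In liver epithelium this cortex surrounds the bile canaliculi, and a fall in free actin monomer releases coactivators of serum response factor, SRF, which binds the CArG box in many actin genes.

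With drug, both cytoplasmic actin genes, both tested crosslinker genes, the profilin gene PFN1 and the cofilin gene CFL1 of PLC8024 rose, while 2 of the 3 myosin II heavy chain genes fell. Of the 40 members whose mean reached 1 FPKM in control or with drug, 16 rose and 4 fell at a limma adjusted p under 0.05, and 20 did not pass. Those 16 are 40% of the tested members, against 7.78% of all 11227 tested genes that rose. The 4 are 10% of them, against 6.02% of all tested genes that fell. The members were chosen with earlier results of these data known, so these shares describe them and test no excess. Both comparisons also depend on abundance. With the filter raised to 10 FPKM, 50% of the 34 members left rose, against 21.6% of all genes left. In that fit 5.88% of members fell, against 13.1% of all genes. Against abundant genes the gap in rises was therefore smaller, and members showed no larger share of falls. MYH10 and MYH14, the 2 heavy chain genes that fell, were under that filter and not in that fit. PFN2 and RDX stayed lower in it (limma adjusted p = 0.00567 and 0.0187). The regulatory light chain gene MYL9 rose most, 1.77-fold, and MYH14 fell most, to 0.784 of its control level. All 20 ratios lay between 0.78 and 1.77. In bulk libraries a change in the number of cells of a kind and in RNA per cell cannot be told apart. The median log2 fold change, on the log2(FPKM + 1) scale, was 0.13 over the 40 tested members and 0.04 over all tested genes. Both drug libraries lay above both controls for 26 members (40.3% of all tested genes did so) and below both for 8 (23.3% did), so groups did not overlap for 85% of tested members, against 63.5% of all tested genes. All 20 calls were also made, in the same direction, by edgeR's quasi-likelihood test and by DESeq2 on recovered reads (either tool at an adjusted p under 0.05). With edgeR 42.5% of the tested members were higher and 15% lower, against 8.37% and 11% of all tested genes. With DESeq2 46.3% and 14.6% of the 41 members were, against 7.6% and 8.91% of all tested genes. The authors' deposited table has 17 of the 41 as higher and 6 as lower at an adjusted p under 0.05, where 3.18% of its genes are higher and 4.03% lower, and lists all 41 as STABLE. Calls over all genes were 56.4% higher with FPKM as deposited, and 43.1% higher after scaling by TMM, a factor that equalises the bulk of genes between libraries. With that scaling 12 members rose and 4 fell, against 4.89% and 6.45% of all tested genes. With 1 library left out limma called fewer members higher, 4 when control 1 was left out, 5 for control 2, 10 for drug 1 and 7 for drug 2. These are 10%, 12.5%, 25.6% and 17.5% of the members in each fit, against 1.02%, 1.44%, 1.96% and 1.58% of all genes. None was then called lower at an adjusted p under 0.05, against 1.67% to 2.44% of all genes. At an unadjusted p under 0.05, 4 to 5 members lay lower, 10% to 12.5% of them against 9.48% to 10.5% of all genes. MYL9, TAGLN2, TPM2 and PFN1 kept their calls whichever library was left out.

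**Figure D1:**
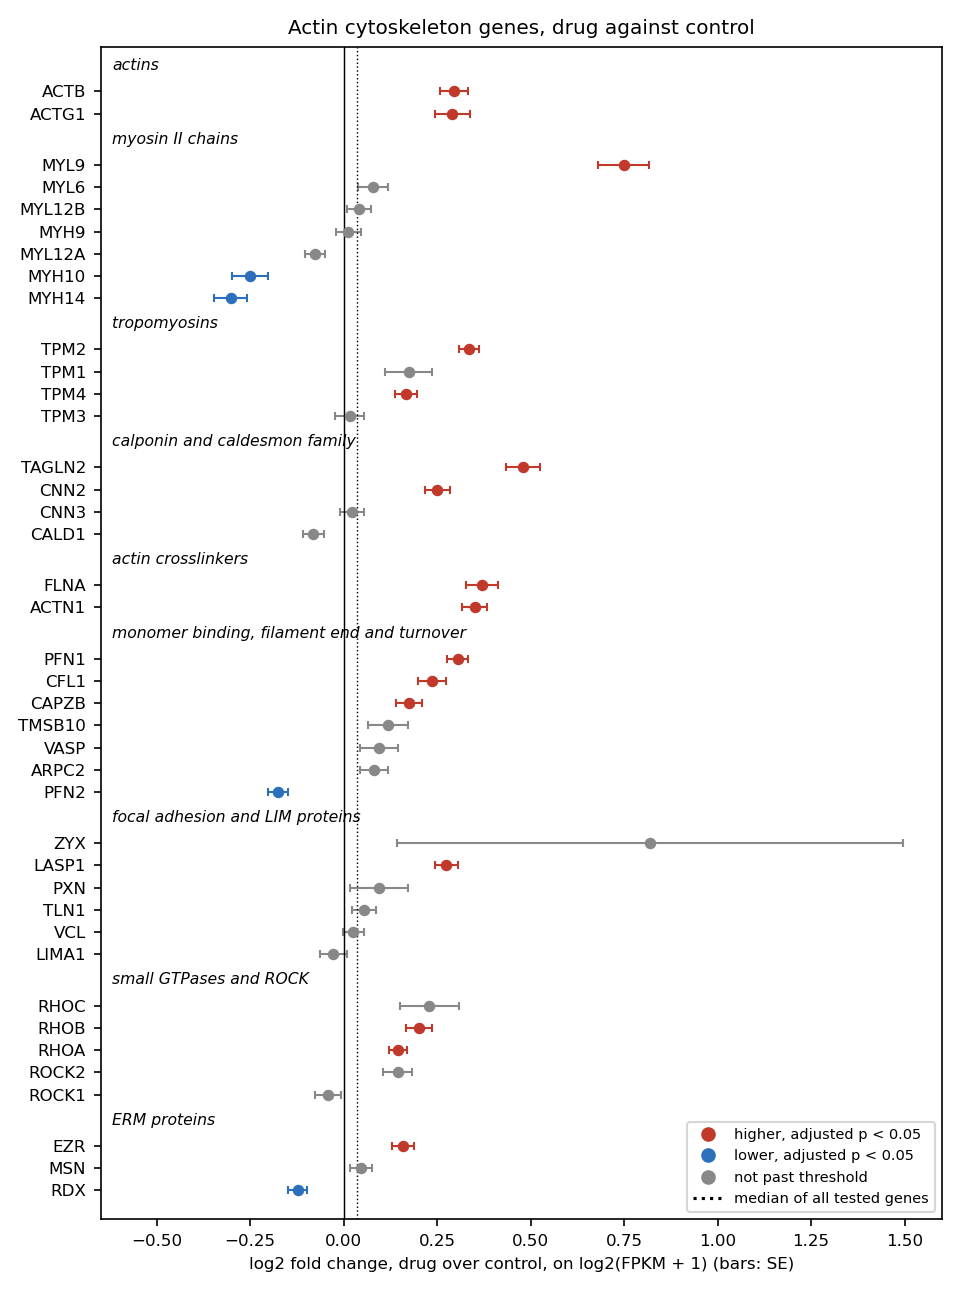
Log2 fold change of drug over control for the 40 tested members, grouped by role, on the log2(FPKM + 1) scale with the standard error of limma as bars, in red where a gene rose and blue where it fell at an adjusted p under 0.05, in grey otherwise, and with the median of all tested genes as a dotted line. MYL9 is the red point farthest to the right, and the wide bar belongs to ZYX, whose 2 drug libraries differ.

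Recovered gene reads ran from 28526098 to 40279560 per library, and the 41 members took 349921 to 545848 of them. Their share of all gene reads was 1.23% and 1.246% in control and 1.36% and 1.4004% with drug. Liver markers chosen for the line were present in part: the fibrinogen chain genes, TF and GPC3 were abundant, while AFP reached at most 0.449 FPKM, APOB 0.0384 FPKM and TTR 0.0238 FPKM in any library. Summed over 15 liver markers the level was 2436 and 2438 FPKM in control and 1627 and 1541 FPKM with drug. Of 12 tested markers 2 rose, FOXA2 and HNF4A (16.7%, against 7.78% of all tested genes). The 8 that fell were FGG, FGB, ALB, GPC3, FGA, APOH, TF and APOA1 (66.7%, against 6.02% of all tested genes). The 8 epithelial markers summed to 656 and 680.01 FPKM in control and 726 and 759.9 FPKM with drug. Of the 5 tested, the keratin genes KRT18 (limma log2 fold change 0.50 ± 0.04 SE, adjusted p = 0.00391) and KRT8 (limma log2 fold change 0.39 ± 0.04 SE, adjusted p = 0.00851) rose and CDH1, the E-cadherin gene, fell (limma log2 fold change -0.61 ± 0.03 SE, adjusted p = 0.00175). The part of these marker changes in the members' results was not tested. Of 10 fibroblast and stellate cell markers 8 had a row. None reached 1 FPKM, and their summed level was 0.688 to 0.714 FPKM in control and 1.12 to 1.15 FPKM with drug. PDGFRB (0.359 and 0.327 FPKM in control against 0.626 and 0.598 FPKM with drug) and LUM (0.184 and 0.175 FPKM in control against 0.390 and 0.348 FPKM with drug) made most of it, and the collagen genes COL1A1, COL1A2 and COL3A1 had at most 0.0891 FPKM, with COL3A1 at 0 in 2 libraries. Endothelial markers, 4 of 6 with a row, summed to 4.17 to 4.71 FPKM in control and 2.12 to 2.23 FPKM with drug, nearly all of it PECAM1, which fell (limma log2 fold change -0.77 ± 0.07 SE, adjusted p = 0.00669), and VWF was at 0 in 3 libraries. Blood cell markers, 4 of 8 with a row, summed to 0.967 to 0.970 and 0.922 to 1.11 FPKM. Of the 9 genes with a row among 18 muscle isoforms of actin and myosin and muscle markers, only SMTN passed the filter, and the muscle actin genes ACTA1 and ACTG2 had at most 0.0442 and 0.0184 FPKM.

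Sequences before the transcription start were read for the members. RefSeq promoter windows of GRCh38.p14, 250 bases before to 50 after a start, were matched by symbol for 38 members (63 windows), leaving ACTB, PFN2 and MYL9. The CArG box was searched by its name on both strands, and its form is the same read on either. It was found in 6 member genes, 15.8% of 38, against 1.604% of all 27305 genes with a window (1.29% of all 35116 windows). The 6 elements are shown because 5 of their genes rose with drug, ACTG1, TPM4, CNN2, ACTN1 and FLNA. In the sixth, ROCK2, limma gave an adjusted p of 0.0733. Each line gives 30 bases from 5′ to 3′ on the strand of the gene, with the CArG box in capitals.
ACTG1 (chr17:81512874-81512903, minus strand): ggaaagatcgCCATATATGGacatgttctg
TPM4 (chr19:16067355-16067384, plus strand): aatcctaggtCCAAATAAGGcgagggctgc
CNN2 (chr19:1026509-1026538, plus strand): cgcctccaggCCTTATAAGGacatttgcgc
ACTN1 (chr14:68977718-68977747, minus strand): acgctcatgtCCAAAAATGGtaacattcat
FLNA (chrX:154374709-154374738, minus strand): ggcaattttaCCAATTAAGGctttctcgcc
ROCK2 (chr2:11345491-11345520, minus strand): aaatgtacttCCTTAAATGGgtttactggg
The box starts 94 bases before the RefSeq start in ACTG1 and in FLNA, 89 in CNN2, 73 in ROCK2, 171 in ACTN1 and 173 in TPM4. For ACTN1, with 4 windows, for TPM4, with 3, and for ROCK2, with 2, it lies in 1 window only, and the table gives no level per start. The bases shown overlap an annotated exon of ACTG1 itself, and for FLNA one of AC245140.3. Outside the members, having a box went with no larger share of rises: of 108 other tested genes with one, 8 rose (7.41%) and 6 fell (5.56%), against 8.53% and 5.80% of the 8211 tested genes with a window. The motif GGAATG, in either orientation, was in 11 of the 38 members (28.9%), against 16.7% of all genes. Of these ACTN1 and PFN1 rose and MYH10 fell. Among all tested genes with this motif 9.28% rose and 6.01% fell, near the 8.53% and 5.80% of tested genes with a window. TATAAA, in either orientation, was in 4 members (10.5%), against 14.0% of all genes. TATAAA can lie inside a CArG box, and the GG that ends a CArG box can begin GGAATG. A match describes the letters of a window and shows no binding.

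Both cytoplasmic actin genes rose by nearly the same factor. ACTB (ENSG00000075624, chromosome 7 at 5527147 to 5563784, positions being those of GENCODE 29 in GRCh38), the beta-actin gene, read 519.9 and 525 FPKM in control and 622 and 662 FPKM with drug. Both drug values lie above both controls, a 1.23-fold rise (limma log2 fold change 0.30 ± 0.04 SE, adjusted p = 0.0122). ACTG1 (ENSG00000184009, chromosome 17 at 81509971 to 81523847), the gamma-actin gene, read 8.11 and 8.07 FPKM in control and 9.73 and 10.5 FPKM with drug, again without overlap and 1.252-fold higher (limma log2 fold change 0.29 ± 0.05 SE, adjusted p = 0.0233). ACTG1 thus made up 1.54% and 1.51% in control and 1.54% and 1.57% with drug of the summed FPKM of both genes. The part of read placement in this low share was not tested. The 2 genes code for nearly identical proteins and have many processed copies. Of the 50-base words in annotated transcripts, 4.84% of those of ACTB and 2.3% of those of ACTG1 also occur in transcripts of genes elsewhere, so how the authors' counting split reads between copies makes these levels uncertain. The call of ACTB was lost without control 1 (adjusted p = 0.0771) or control 2 (0.0701). That of ACTG1 was lost without control 1 (adjusted p = 0.101), control 2 (0.0991) or drug 2 (0.0854).

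**Figure D2:**
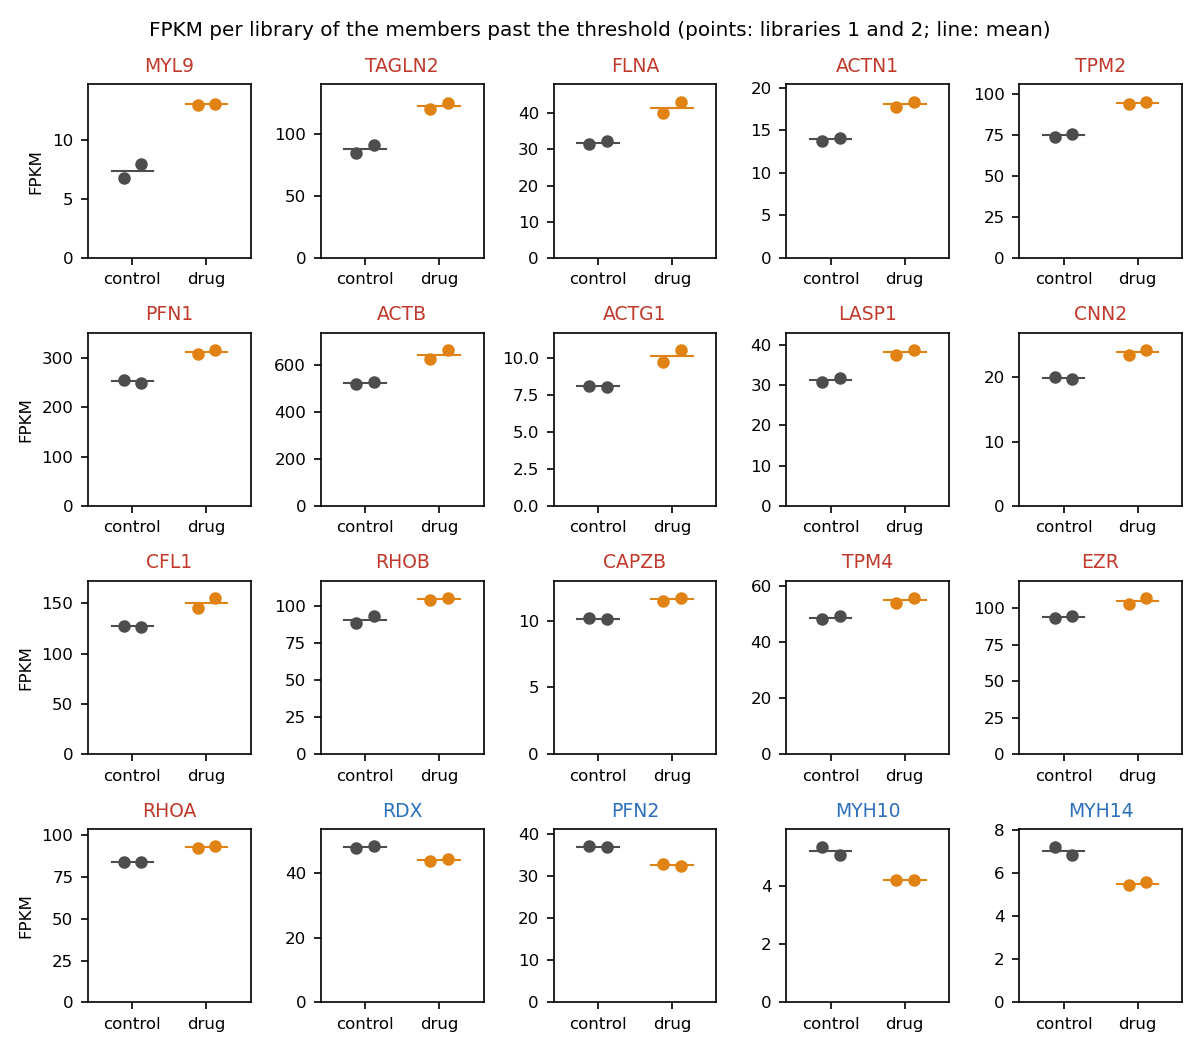
FPKM in each library for the 20 members past the threshold, each panel with its own axis from 0. Points are libraries 1 and 2 of a group and lines their means, and in every panel the drug points lie wholly above (red names) or wholly below (blue names) the control points, as in MYL9 with 6.80 and 7.91 FPKM in control and 12.97 and 13.1 FPKM with drug.

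The chains of non-muscle myosin II went in different directions. MYL9 (ENSG00000101335, chromosome 20 at 36541484 to 36551447), a regulatory light chain typical of contractile cells, read 6.80 and 7.91 FPKM in control and 13.0 and 13.1 FPKM with drug. On 545 and 858 reads in control and 1467 and 1418 with drug, this was a 1.77-fold rise (limma log2 fold change 0.75 ± 0.07 SE, adjusted p = 0.00647), and it held with each library left out (adjusted p = 0.0181 to 0.0369). No 50-base word of MYL9 is shared with transcripts of another locus. The other regulatory light chains were far more abundant and did not pass: MYL12B read 299.99 and 316 FPKM in control and 317 and 316 FPKM with drug, with overlapping groups (limma log2 fold change 0.04 ± 0.03 SE, adjusted p = 0.439). MYL12A read 88.0 and 89.0 FPKM in control and 82.7 and 85.1 FPKM with drug, both drug values below both controls (limma log2 fold change -0.08 ± 0.03 SE, adjusted p = 0.126), and edgeR called it lower (adjusted p = 0.0412). MYL12A and MYL12B encode nearly identical proteins, and 4.38% of the words of MYL12A and 5.86% of those of MYL12B occur in transcripts of other genes, the partner first, so their separate levels are uncertain. Within the 3 regulatory light chains MYL9 made up 1.72% and 1.92% in control and 3.14% and 3.15% with drug, a share that no scaling of libraries can move. MYL6, the essential light chain gene, read 69.6 and 69.5 FPKM in control and 76.1 and 70.9 FPKM with drug and did not pass (limma log2 fold change 0.08 ± 0.04 SE, adjusted p = 0.239).

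Heavy chains of minor abundance fell while the main one did not pass. MYH14 (ENSG00000105357, chromosome 19 at 50188186 to 50310544), the heavy chain of non-muscle myosin IIC, read 7.23 and 6.86 FPKM in control and 5.47 and 5.58 FPKM with drug, a ratio of 0.784 without overlap (limma log2 fold change -0.30 ± 0.04 SE, adjusted p = 0.0182). MYH10 (ENSG00000133026, chromosome 17 at 8474205 to 8630761), that of myosin IIB, read 5.34 and 5.04 FPKM in control and 4.21 and 4.19 FPKM with drug, a ratio of 0.809 without overlap (limma log2 fold change -0.25 ± 0.05 SE, adjusted p = 0.0344). MYH9, the heavy chain of myosin IIA, read 32.3 and 32.2 FPKM in control and 31.8 and 33.3 FPKM with drug, with the controls inside the range of the drug libraries (limma log2 fold change 0.01 ± 0.03 SE, adjusted p = 0.827, and -0.016 with TMM-scaled FPKM, -0.021 with DESeq2 and without drug 2, -0.028 with edgeR). MYH9 therefore took 72.0% and 73.0% in control and 76.7% and 77.3% with drug of heavy chain FPKM, MYH14 16.1% and 15.6% in control and 13.2% and 12.9% with drug, and MYH10 11.9% and 11.4% in control and 10.2% and 9.73% with drug. The sizes of these shares depend on the gene lengths used. By reads, MYH10 (4983 and 6365 in control) stood above MYH14 (2144 and 2755 in control). With any 1 library left out both calls were lost, with adjusted p of 0.0671 to 0.0943 for MYH14 and 0.0937 to 0.148 for MYH10. The lowest value came without control 2 for MYH10 and for MYH14, and the highest without control 1.

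**Figure D3:**
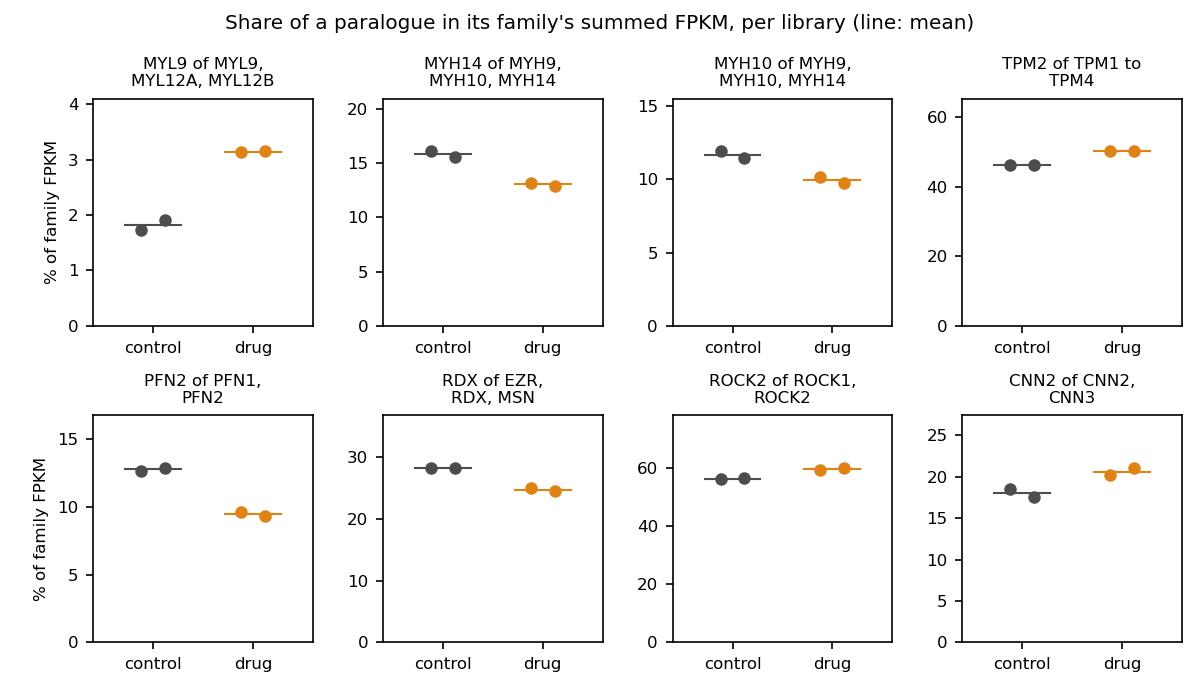
Share of 1 gene in the summed FPKM of its family in each library, in percent, with each axis from 0, points for libraries 1 and 2 and lines for their means. MYL9, TPM2, ROCK2 and CNN2 take a larger share with drug, and MYH14, MYH10, PFN2 and RDX a smaller one, with no overlap between groups in these 8 panels, which were chosen after the values were seen and carry no test.

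Tropomyosins, the coiled coils that lie along the filament, shifted towards TPM2. TPM2 (ENSG00000198467, chromosome 9 at 35681992 to 35690121) read 73.8 and 75.9 FPKM in control and 94.0 and 95.3 FPKM with drug. It was 1.26-fold higher, had the lowest adjusted p of all members (limma log2 fold change 0.33 ± 0.03 SE, adjusted p = 0.00475) and kept its call with each library left out (adjusted p = 0.0307 to 0.0365). TPM4 read 48.4 and 49.3 FPKM in control and 54.1 and 55.9 FPKM with drug, 1.13-fold higher and without overlap (limma log2 fold change 0.17 ± 0.03 SE, adjusted p = 0.0288). Its call was lost without control 1 (adjusted p = 0.1204), control 2 (0.0921), drug 1 (0.0725) or drug 2 (0.124). TPM1 read 2.91 and 2.67 FPKM in control and 3.18 and 3.37 FPKM with drug, with both drug values above the controls but short of the threshold (limma log2 fold change 0.17 ± 0.06 SE, adjusted p = 0.130, edgeR adjusted p = 0.0439). TPM3 read 34.4 and 36.7 FPKM in control and 36.3 and 35.6 FPKM with drug, with overlapping groups (limma log2 fold change 0.02 ± 0.04 SE, adjusted p = 0.805). Its fold change turned to -0.012 with TMM-scaled FPKM, -0.018 with DESeq2, -0.025 with edgeR and -0.029 without control 1. TPM2 took 46.3% and 46.1% in control and 50.1% and 50.1% with drug of tropomyosin FPKM, and TPM3 21.6% and 22.3% in control and 19.4% and 18.7% with drug. The sizes of these shares also depend on the gene lengths used. By reads in control 1, TPM4 (17099) and TPM3 (14859) stood above TPM2 (6704). Words shared with other loci made up 7.44% of those of TPM4 and 3.27% of those of TPM3, while TPM2 had none.

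Of the calponin and caldesmon group, TAGLN2 and CNN2 rose. TAGLN2 (ENSG00000158710, chromosome 1 at 159918107 to 159925732), which encodes transgelin 2, a calponin-related filament binder, read 84.4 and 91.0 FPKM in control and 120.1 and 125 FPKM with drug. Its 1.40-fold rise was the next largest among called members after MYL9 (limma log2 fold change 0.48 ± 0.04 SE, adjusted p = 0.00650) and held with each library left out (adjusted p = 0.0284 to 0.0365). Of its words 5.84% occur in 1 processed copy, TAGLN2P1. CNN2, encoding calponin 2, read 20.1 and 19.7 FPKM in control and 23.4 and 24.2 FPKM with drug, 1.200-fold higher without overlap (limma log2 fold change 0.25 ± 0.03 SE, adjusted p = 0.0133), and lost its call without control 1 (adjusted p = 0.0644), control 2 (0.0710), drug 1 (0.0501) or drug 2 (0.0704). CNN3, encoding the acidic calponin, was more abundant and read 88.5 and 92.4 FPKM in control and 92.9 and 90.7 FPKM with drug, with overlapping groups (limma log2 fold change 0.02 ± 0.03 SE, adjusted p = 0.677). That fold change was -0.0071 with TMM-scaled FPKM, -0.012 with DESeq2, -0.019 with edgeR and -0.0090 without control 1. CALD1, the caldesmon gene, whose product restrains myosin on the filament, read 30.7 and 30.2 FPKM in control and 28.9 and 28.6 FPKM with drug. Both drug values were below the controls, but limma did not pass it (limma log2 fold change -0.08 ± 0.03 SE, adjusted p = 0.114), while edgeR did (adjusted p = 0.0349).

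Both crosslinker genes that could be tested rose. FLNA (ENSG00000196924, chromosome X at 154348524 to 154374638), encoding filamin A, which joins filaments into networks, read 31.5 and 32.3 FPKM in control and 40.01 and 43.1 FPKM with drug, 1.301-fold higher without overlap (limma log2 fold change 0.37 ± 0.04 SE, adjusted p = 0.0107). ACTN1 (ENSG00000072110, chromosome 14 at 68874143 to 68979440), encoding alpha-actinin 1 of stress fibre bundles, read 13.8 and 14.1 FPKM in control and 17.8 and 18.3 FPKM with drug, 1.29-fold higher without overlap (limma log2 fold change 0.35 ± 0.03 SE, adjusted p = 0.00721). The call of FLNA was lost without control 1 (adjusted p = 0.0644) or control 2 (0.0574), and that of ACTN1 without control 1 (adjusted p = 0.0503). ACTN4, encoding alpha-actinin 4, was not tested: control 1 held 2 of its reads, drug 2 held 3, and the other libraries held 0. Both groups are at or under 3 reads, so no fold is given. Of 37 annotated coding genes within 500 kb of ACTN4, 24 also had under 10 reads in every library. This share is not particular to ACTN4. It was 18 of 27 for TAGLN2 and 14 of 21 for LASP1, both expressed and called higher. It was 18 of 22 for ZYX, and lower than that of ACTN4 for all other members. The part of read placement and of the region in the low reads of ACTN4 was not tested.

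Of 7 genes of monomer supply, filament ends and turnover 3 rose and 1 fell. All 7 were in the limma fit with the filter of 10 FPKM. There 3 were higher (42.9%, against 21.6% of all genes) and 1 lower (14.3%, against 13.1%). PFN1 (ENSG00000108518, chromosome 17 at 4945652 to 4949061), encoding the main profilin, which loads monomers for growth, read 256 and 249 FPKM in control and 308 and 316 FPKM with drug, 1.24-fold higher (limma log2 fold change 0.30 ± 0.03 SE, adjusted p = 0.00646), and kept its call with each library left out (adjusted p = 0.0307 to 0.0474). PFN2 (ENSG00000070087, chromosome 3 at 149964904 to 150050788), its paralogue best known from neurons, fell: it read 37.2 and 36.9 FPKM in control and 32.8 and 32.5 FPKM with drug, a ratio of 0.882 (limma log2 fold change -0.18 ± 0.03 SE, adjusted p = 0.0188). Neither gene's groups overlapped, and PFN2 took 12.7% and 12.9% in control and 9.62% and 9.31% with drug of profilin FPKM. The call of PFN2 was lost without control 1 (adjusted p = 0.0892), control 2 (0.0777), drug 1 (0.0774) or drug 2 (0.0984). CFL1, encoding cofilin 1, the severing protein, read 128 and 127 FPKM in control and 145 and 155 FPKM with drug, 1.18-fold higher without overlap (limma log2 fold change 0.24 ± 0.04 SE, adjusted p = 0.0232). CAPZB, the beta subunit of the capping protein of growing ends, read 10.2 and 10.1 FPKM in control and 11.5 and 11.7 FPKM with drug, 1.14-fold higher without overlap (limma log2 fold change 0.17 ± 0.03 SE, adjusted p = 0.0352). CFL1 lost its call without control 1 (adjusted p = 0.0992), control 2 (0.1001) or drug 2 (0.0653). CAPZB lost its call without control 1 (adjusted p = 0.126), control 2 (0.125), drug 1 (0.105) or drug 2 (0.149), and with TMM-scaled FPKM (adjusted p = 0.0529).

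The other members of this group lay higher with drug in both libraries without passing. TMSB10, encoding thymosin beta 10, a monomer sequestering peptide, was the highest member by FPKM. It read 1123 and 1220.3 FPKM in control and 1233 and 1311 FPKM with drug (limma log2 fold change 0.12 ± 0.05 SE, adjusted p = 0.193). Its 2 control libraries differ by nearly as much as the group means. VASP, an elongation factor at filament tips, read 25.8 and 24.9 FPKM in control and 25.9 and 28.4 FPKM with drug (limma log2 fold change 0.09 ± 0.05 SE, adjusted p = 0.260). ARPC2, a core subunit of the Arp2/3 complex, read 25.7 and 27.1 FPKM in control and 27.5 and 28.5 FPKM with drug (limma log2 fold change 0.08 ± 0.04 SE, adjusted p = 0.203).

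**Figure D4:**
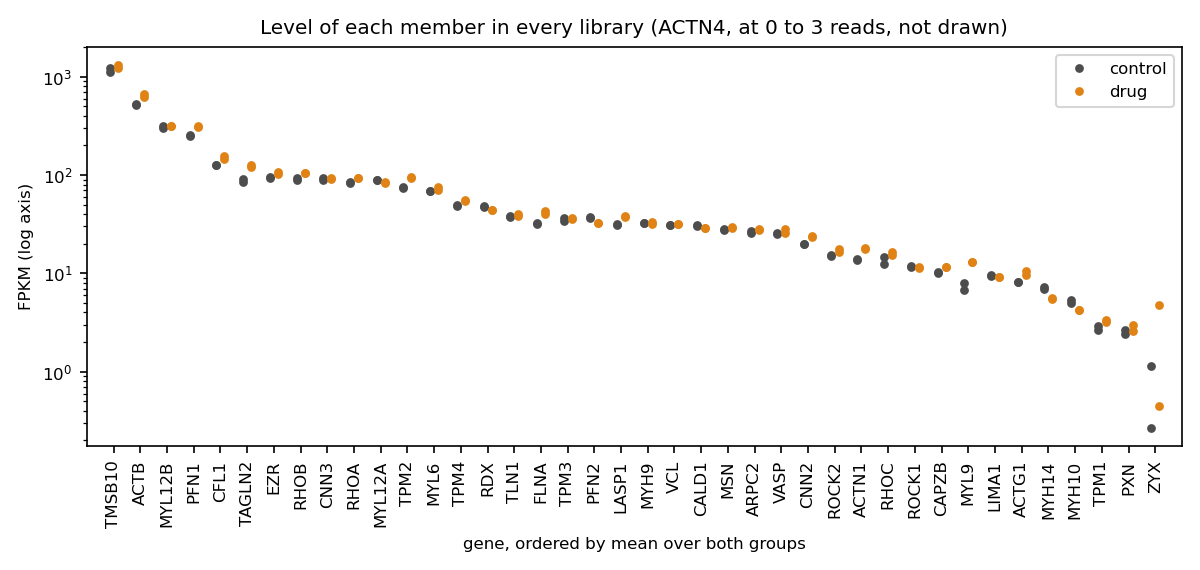
FPKM of 40 members in every library on a log axis, ordered by the mean over both groups, with grey points for control and orange points for drug libraries. TMSB10 stands highest, at 1123 FPKM or more in every library, ACTB follows at 519.9 to 662 FPKM, and ZYX at the right spreads from 0.27 to 4.80 FPKM.

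By FPKM, TMSB10 and ACTB stood highest among the members, followed by MYL12B, PFN1 and CFL1, an order that depends on the gene lengths used. By reads in control 1, ACTB (65331) stood above TMSB10 (14772). The ranges of MYL12B and PFN1 over the 4 libraries overlapped. From TAGLN2 to MYL12A, 6 genes (TAGLN2, EZR, RHOB, CNN3, RHOA and MYL12A) had control libraries between 83.9 and 94.5 FPKM, and the control ranges of TAGLN2, RHOB, CNN3 and MYL12A overlapped one another. With drug, both libraries of TAGLN2 stood above those of the other 5. At the low end TPM1 and PXN had overlapping ranges over the 4 libraries, 2.67 to 3.37 and 2.43 to 2.97 FPKM.

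Of the adhesion plaque and LIM domain genes LASP1 alone passed. LASP1 (ENSG00000002834, chromosome 17 at 38869859 to 38921770), encoding a LIM and SH3 domain protein that binds filaments at adhesions and ruffles, read 30.8 and 31.7 FPKM in control and 37.5 and 38.6 FPKM with drug, 1.22-fold higher without overlap (limma log2 fold change 0.27 ± 0.03 SE, adjusted p = 0.0106). Its call was lost without control 1 (adjusted p = 0.0603), control 2 (0.0503) or drug 2 (0.0581). VCL and TLN1 encode vinculin and talin 1, the linkers between integrin and actin. VCL read 31.3 and 31.1 FPKM in control and 31.6 and 32.0 FPKM with drug (limma log2 fold change 0.03 ± 0.03 SE, adjusted p = 0.546). TLN1 read 37.3 and 38.0 FPKM in control and 38.3 and 39.9 FPKM with drug (limma log2 fold change 0.05 ± 0.03 SE, adjusted p = 0.302). Both drug values lay above both controls for VCL and TLN1, though for VCL the fold change was -0.0021 with TMM-scaled FPKM, -0.0066 with DESeq2 and -0.014 with edgeR. PXN, encoding the adaptor paxillin, read 2.65 and 2.43 FPKM in control and 2.60 and 2.97 FPKM with drug, with overlap (limma log2 fold change 0.09 ± 0.08 SE, adjusted p = 0.440). LIMA1, encoding a filament stabiliser also called EPLIN, read 9.33 and 9.53 FPKM in control and 9.28 and 9.18 FPKM with drug, both drug values below the controls (limma log2 fold change -0.03 ± 0.04 SE, adjusted p = 0.628). ZYX, the zyxin gene, had 25 and 143 reads in control and 632 and 57 with drug, or 0.268 and 1.13 FPKM in control and 4.80 and 0.451 FPKM with drug, and was not called (limma log2 fold change 0.82 ± 0.68 SE, adjusted p = 0.446). Both its drug libraries and its control libraries differed from each other more than 4-fold, and ZYX is 1 of 108 genes of the table with at least 20 reads and such a gap within a group. Without drug 1 its level was under the filter. The part of read placement in this was not tested.

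RHOA and RHOB rose, and RHOC and both ROCK kinase genes did not pass. RHOA, encoding the GTPase that switches on ROCK and formins, read 84.3 and 83.9 FPKM in control and 92.4 and 93.8 FPKM with drug, 1.11-fold higher (limma log2 fold change 0.15 ± 0.02 SE, adjusted p = 0.0244). RHOB, encoding an endosomal relative with rapid turnover, read 88.4 and 93.3 FPKM in control and 104 and 105 FPKM with drug, 1.15-fold higher (limma log2 fold change 0.20 ± 0.03 SE, adjusted p = 0.0255). Neither gene's groups overlapped, but both calls were lost with any 1 library left out (adjusted p = 0.0864 to 0.117 for RHOA and 0.0514 to 0.112 for RHOB, lowest without drug 1 for RHOA and without control 2 for RHOB) and with TMM-scaled FPKM (0.0594 and 0.0529). RHOC, a relative linked to motility, read 12.4 and 14.5 FPKM in control and 15.4 and 16.4 FPKM with drug, both drug values above the controls (limma log2 fold change 0.23 ± 0.08 SE, adjusted p = 0.118, DESeq2 adjusted p = 0.0306). ROCK1 read 12.0 and 11.7 FPKM in control and 11.3 and 11.6 FPKM with drug, both drug values below the controls (limma log2 fold change -0.04 ± 0.04 SE, adjusted p = 0.459). ROCK2 read 15.5 and 15.2 FPKM in control and 16.6 and 17.5 FPKM with drug, both above (limma log2 fold change 0.14 ± 0.04 SE, adjusted p = 0.0733, DESeq2 adjusted p = 0.0138). The share of ROCK2 in the summed FPKM of both kinases was 56.4% and 56.5% in control and 59.4% and 60.2% with drug. Of the words of ROCK1, 11.8% also occur at other loci, ROCK1P1 first among them, so its level is uncertain.

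The 3 linkers of filaments to the membrane split. EZR, the ezrin gene, read 93.3 and 94.5 FPKM in control and 103 and 107 FPKM with drug, 1.12-fold higher without overlap (limma log2 fold change 0.16 ± 0.03 SE, adjusted p = 0.0323). RDX, encoding radixin, the linker that dominates in hepatocytes and their canaliculi, read 47.7 and 48.3 FPKM in control and 43.7 and 44.3 FPKM with drug, a ratio of 0.916 without overlap (limma log2 fold change -0.12 ± 0.03 SE, adjusted p = 0.0421). MSN, the moesin gene, read 27.9 and 28.4 FPKM in control and 28.7 and 29.4 FPKM with drug and did not pass (limma log2 fold change 0.05 ± 0.03 SE, adjusted p = 0.334). Of their summed FPKM, RDX made up 28.2% and 28.2% in control and 24.9% and 24.5% with drug, and EZR 55.3% and 55.2% in control and 58.7% and 59.2% with drug. Both calls were lost with any 1 library left out (adjusted p = 0.0668 to 0.130 for EZR, lowest without drug 1, and 0.123 to 0.152 for RDX, lowest without control 1), and that of EZR with TMM-scaled FPKM (0.0549).

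Other genes of the pathway came from 9 lists of 150 genes, 146 of them in the table and 117 tested. Of these 19 rose (16.2%) and 6 fell (5.13%), with a median log2 fold change of 0.05, against 7.78% and 6.02% and a median of 0.04 over all tested genes. With the filter raised to 10 FPKM, limma had 36.5% of 63 pathway genes higher and 9.52% lower, against 21.6% and 13.1% of all genes left. The edgeR test had 29 higher (24.8%, against 8.37% of all tested genes) and 15 lower (12.8%, against 11%). Among small GTPases of the cytoskeleton and their regulators 6 of 17 rose. RND1, encoding a constitutively active small GTPase that opposes RhoA, rose most (5.95 and 6.36 FPKM in control against 10.9 and 10.5 FPKM with drug, limma log2 fold change 0.71 ± 0.05 SE, adjusted p = 0.00306) and kept its call with each library left out. RAC1, the GTPase of lamellipodia, rose (44.8 and 47.2 FPKM in control against 55.6 and 56.3 FPKM with drug, limma log2 fold change 0.28 ± 0.03 SE, adjusted p = 0.0120), as did ARHGAP1, a GTPase activating protein (9.18 and 8.73 FPKM in control against 10.8 and 11.2 FPKM with drug, limma log2 fold change 0.27 ± 0.04 SE, adjusted p = 0.0199). RAC1 lost its call without control 1 (adjusted p = 0.0529), drug 1 (0.0569) or drug 2 (0.0651), and ARHGAP1 with any 1 library left out (0.0671 to 0.0961). Among 21 tested integrins and plaque genes 5 rose, led by the laminin receptor chain ITGA6 (5.01 and 4.75 FPKM in control against 7.36 and 7.89 FPKM with drug, limma log2 fold change 0.55 ± 0.05 SE, adjusted p = 0.00656), which kept its call with each library left out. ITGB5 (23.9 and 25.5 FPKM in control against 30.3 and 31.2 FPKM with drug, limma log2 fold change 0.31 ± 0.04 SE, adjusted p = 0.0146) and ITGAV (14.1 and 13.5 FPKM in control against 17.5 and 16.6 FPKM with drug, limma log2 fold change 0.28 ± 0.04 SE, adjusted p = 0.0187), the chains of a vitronectin receptor, rose too. ITGAV lost its call with any 1 library left out (adjusted p = 0.0516 to 0.0866), and ITGB5 without control 1 (adjusted p = 0.0594), drug 1 (0.0578) or drug 2 (0.0741).

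**Figure D5:**
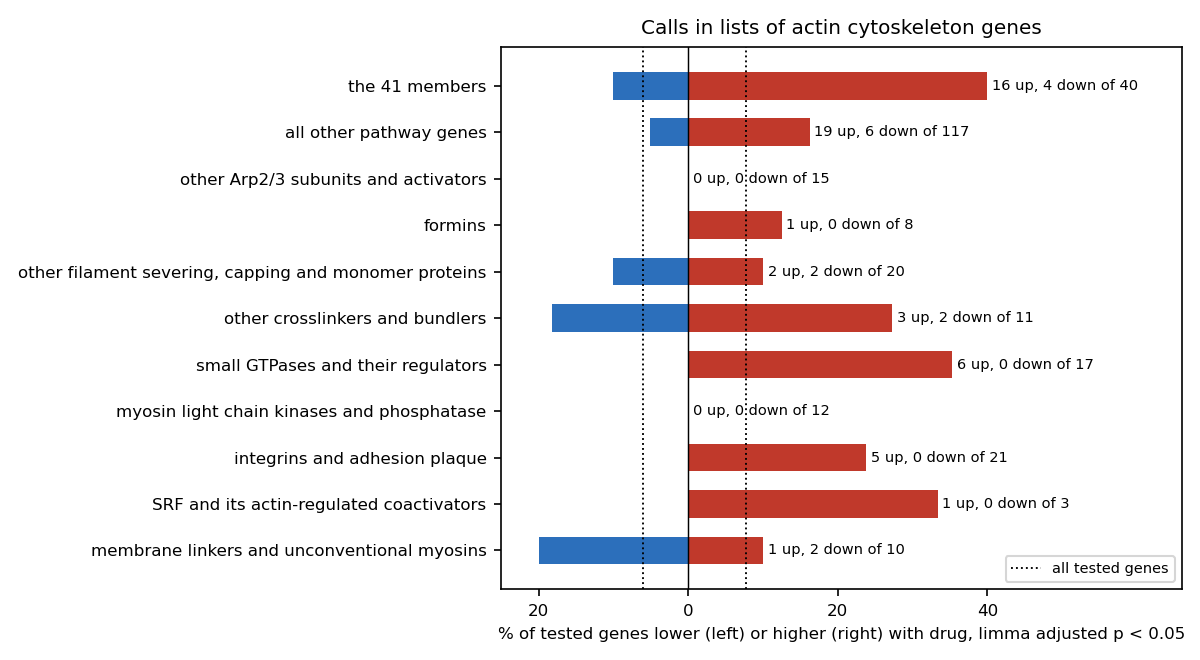
Share of tested genes that rose (red, to the right) or fell (blue, to the left) with drug at a limma adjusted p under 0.05, for the members and 9 lists of other actin cytoskeleton genes, with counts beside the bars and dotted lines at the shares over all 11227 tested genes, 7.78% higher and 6.02% lower. The members have 16 of 40 higher, and the lists of Arp2/3 genes and of myosin light chain kinases and phosphatase have none called.

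The Arp2/3 and light chain kinase lists had no call by limma, where 13.8% of all tested genes were called in either direction and 21% lay higher at an unadjusted p under 0.05. Of 15 other Arp2/3 subunits and activators 0 passed, with 3 higher at an unadjusted p under 0.05. With edgeR 1 was higher, and with DESeq2 1 was higher and 1 lower. Of 12 myosin light chain kinase and phosphatase genes 0 passed, again with 3 higher at an unadjusted p under 0.05, and edgeR and DESeq2 each called 1 higher. Lists of this size with 0 or 1 call are not set apart from all genes by these counts. MYLK, the myosin light chain kinase gene, stayed under the filter at 0.136 to 0.201 FPKM. Of the formins 1 of 8 passed, FMNL2 (16.5 and 16.3 FPKM in control against 21.2 and 20.3 FPKM with drug, limma log2 fold change 0.32 ± 0.04 SE, adjusted p = 0.00916). It lost its call without control 1 (adjusted p = 0.0542) or control 2 (0.0590). Of 20 severing and monomer genes 2 rose and 2 fell: DSTN, the destrin gene (67.2 and 67.8 FPKM in control against 80.4 and 80.4 FPKM with drug, limma log2 fold change 0.25 ± 0.02 SE, adjusted p = 0.00683), and CAP1, encoding a recycler of cofilin-bound monomers (71.4 and 73.1 FPKM in control against 86.1 and 85.3 FPKM with drug, limma log2 fold change 0.24 ± 0.03 SE, adjusted p = 0.00851), rose, while TMSB4X, the thymosin beta 4 gene, fell (121 and 119 FPKM in control against 102 and 99.1 FPKM with drug, limma log2 fold change -0.25 ± 0.03 SE, adjusted p = 0.00940). CAP1 lost its call without control 1 (adjusted p = 0.0536) or drug 1 (0.0512), and TMSB4X without control 1 (adjusted p = 0.0603) or control 2 (0.0534). Among 11 crosslinkers and bundlers 3 rose and 2 fell. ANLN, encoding the cytokinetic scaffold anillin (35.9 and 34.8 FPKM in control against 44.7 and 43.0 FPKM with drug, limma log2 fold change 0.30 ± 0.03 SE, adjusted p = 0.00973), and the spectrin gene SPTBN1 (30.5 and 30.6 FPKM in control against 35.5 and 37.4 FPKM with drug, limma log2 fold change 0.25 ± 0.03 SE, adjusted p = 0.0154) rose, and FSCN1, encoding the filopodial bundler fascin, fell (7.70 and 7.90 FPKM in control against 6.27 and 6.04 FPKM with drug, limma log2 fold change -0.30 ± 0.04 SE, adjusted p = 0.0157). ANLN lost its call without control 2 (adjusted p = 0.0577), SPTBN1 without control 1 (adjusted p = 0.0799), control 2 (0.0756) or drug 2 (0.0676), and FSCN1 with any 1 library left out (0.0572 to 0.0866).

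SRF itself, the factor that binds the CArG box, passed narrowly as higher (16.6 and 17.0 FPKM in control against 18.6 and 18.9 FPKM with drug, limma log2 fold change 0.15 ± 0.03 SE, adjusted p = 0.0457). The call was lost with any 1 library left out (adjusted p = 0.106 to 0.178), with TMM-scaled FPKM (0.0851) and with DESeq2 (0.107), and was made by edgeR (0.0350). The genes of its actin-regulated coactivators did not pass, MRTFA at 2.78 and 2.81 FPKM in control against 2.98 and 3.60 FPKM with drug (limma log2 fold change 0.17 ± 0.08 SE, adjusted p = 0.226) and MRTFB at 3.41 and 3.04 FPKM in control against 3.72 and 3.67 FPKM with drug (limma log2 fold change 0.15 ± 0.06 SE, adjusted p = 0.169). Of 10 membrane linkers and unconventional myosins, MYO1D (8.51 and 8.603 FPKM in control against 6.61 and 7.11 FPKM with drug, limma log2 fold change -0.28 ± 0.05 SE, adjusted p = 0.0239) and MYO1E (50.7 and 50.1 FPKM in control against 43.2 and 43.4 FPKM with drug, limma log2 fold change -0.21 ± 0.03 SE, adjusted p = 0.0109) fell. MYO1D and MYO1E lost their calls with any 1 library left out (adjusted p = 0.0515 to 0.106 and 0.0573 to 0.0642).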

How the data were processed

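RNA was extracted with trizol and made into stranded mRNA libraries, per the labels' protocols. The deposited table holds, for each gene and library, a value that fits FPKM by its behaviour; the header names no unit. It also holds the authors' group means of normalized reads (a signal), log2 fold changes and p-values, raw and adjusted. Bcl2fastq and hg38 are named in the submitters' processing notes. For the aligner, the counter and the annotation the entry is "not given in the sources used here"; whether counting used strand is not given either, so antisense overlap cannot be told apart. All per-library columns entered the work.

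Values of genes whose mean reached 1 FPKM in control or with drug were fitted on log2(FPKM + 1) with limma 3.58.1 (trend) in R 4.3.3, with Benjamini-Hochberg adjustment over all 11227 and a threshold of 0.05. Logs understate the change of low genes. Whole reads were recovered from FPKM and the deposited group means (100% of values within 0.1 read) and tested with edgeR 4.0.16 and DESeq2 1.42.0 as alternatives. Further alternatives were a pseudocount of 0.1, no filter, a filter of 10 FPKM, TMM scaling, blocking on the replicate number, and leaving out each library in turn, where the lone library of a group is assumed to vary like the other group. An exact permutation test of 2 against 2 cannot go below 0.33. Positions are from GENCODE 29. Shared words are 50-base stretches of its transcripts that occur in genes at other loci.

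Named with all 4 values are members past the threshold, those with a mean of at least 300 FPKM, and members of a role group in which another passed. Up to 3 called genes with the largest change are named per pathway list. Paralogue shares were chosen after values were seen, and their sizes depend on the gene lengths behind FPKM, which are not given. Members and lists were chosen with earlier results of these data known. The result of 1 called pathway gene is not reported here.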

Additional observations from a re-analysis of the deposited data

How the results depend on the processing

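The 16 members called higher and 4 called lower became 6 and 0 with no filter on low values (26603 genes tested; 17 and 6 at an unadjusted p under 0.05), 4 to 10 and 0 with 1 library left out, and 2 lower with a filter of 10 FPKM and with a replicate block. With the pseudocount of 0.1 they were 16 and 4. The 6 and 0 with no filter are 14.6% and 0% of 41 members, against 0.639% and 0.804% of all genes. At an unadjusted p under 0.05 without the filter, the shares were 41.5% and 14.6% of members, against 9.79% and 6.9% of all genes. With the filter of 10 FPKM, the 17 higher and 2 lower are 50% and 5.88% of 34 members, against 21.6% and 13.1% of all genes in that fit. For the 19 and 6 other pathway genes the counts were 29 and 15 with edgeR, 30 and 18 with DESeq2, 10 and 3 with no filter, and 4 to 8 and 0 to 1 with 1 library left out (edgeR and DESeq2 on recovered reads). Over all genes 873 higher and 676 lower calls became 549 higher with TMM scaling, 1233 lower with edgeR, 1222 lower with DESeq2, 170 and 214 with no filter, 474 higher with the replicate block, and 115 to 221 and 188 to 274 with 1 library left out. With the filter of 10 FPKM, MYH10 and MYH14 were not in the fit, and PFN2 and RDX stayed lower. More genes were tested without the filter, and fewer samples were used with a library left out. Beyond this the cause was not tested. The higher share of calls over all genes was 56.4% as reported, 43.3% with edgeR, 46% with DESeq2, 44.3% with no filter and 62.2% with the filter of 10 FPKM.

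Directions turned for 5 members that were not called. These were MYH9 (DESeq2 -0.021, TMM -0.016, edgeR -0.028, and -0.021 to 0.046 with 1 library left out), TPM3 (DESeq2 -0.018, TMM -0.012, edgeR -0.025, and -0.029 to 0.061 with 1 library left out), CNN3 (DESeq2 -0.012, TMM -0.0071, edgeR -0.019, and -0.0090 to 0.052 with 1 library left out), VCL (DESeq2 -0.0066, TMM -0.0021, edgeR -0.014) and MYL12B (edgeR -0.00088). Each value is a log2 fold change.

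The labels do not say whether libraries of the same replicate number belong together. The differences between replicates 1 and 2 correlated at 0.028 between the groups across tested genes. That 1 value, taken over many low genes, cannot settle whether they do. With the replicate block 14 members were higher and 2 lower. These are 35% and 5% of the tested members, against 4.22% and 4.02% of all tested genes. The calls of MYH10 (adjusted p = 0.0644), CAPZB (0.0710), RHOA (0.0517), RDX (0.0700), ARHGAP1 (0.0506) and SRF (0.0709) from limma were lost with the block. Of the 117 other pathway genes 15 were higher and 5 lower with the block (12.8% and 4.27%), against 19 and 6 without it. Further pathway calls, not named here, were thus lost too. Depth was 28526098 to 40279560 reads per library. Of the 20 member calls, 16 were lost with at least 1 library left out.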
